A study of Mus musculus with 8 samples.

Results

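Receptors for the Fc part of IgG let macrophages bind antibody-coated particles and immune complexes. In mice, Fcgr1, Fcgr3 and Fcgr4 encode the activating receptors FcγRI, FcγRIII and FcγRIV, which need the common gamma chain encoded by Fcer1g to reach the cell surface and to signal through its ITAM motif. Fcgr2b encodes FcγRIIB, the inhibitory receptor, whose ITIM motif recruits the phosphatase SHIP1. Fcgrt encodes the heavy chain of FcRn, which binds IgG inside endosomes and returns it to the surface, so that it sets the turnover of antibody instead of starting a signal. The balance of activating and inhibitory receptors on a macrophage sets how strongly it responds to immune complexes.

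These 6 genes were taken by symbol from the count tables, which list 53735 genes, and all 6 passed the filter on low counts that left 14418 genes for testing. RNA was measured by bulk RNA-seq in bone marrow-derived macrophages (BMDMs) of male mice aged 6 months that had been given angiotensin II (Ang II) for 7 days. After bone marrow was taken, the cells were differentiated in culture for 7 days, so the infusion preceded the culture. WT mice were Mkl1+/+, Apoe-/- (4 libraries) and KO mice were Mkl1-/-, Apoe-/- (4 libraries), so that both genotypes lacked Apoe and no library came from an animal with intact Apoe or without Ang II. All mice were on the C57BL/6J background, and the Mkl1 deletion was global, not limited to myeloid cells. Experiment 1 held WT libraries 1 and 2 and KO libraries 5 and 6, and experiment 2 held WT libraries 3 and 4 and KO libraries 7 and 8. MKL1 is a coactivator of serum response factor, and the study asked how its loss affects inflammation in aortic aneurysm. The comparison made here was KO against WT within each experiment.

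Mkl1, the targeted gene, was at 25.6 and 27.1 CPM (counts scaled to the library total after TMM normalization) in WT and at 19.5 and 20.9 CPM in KO of experiment 1, and at 26.8 and 29.6 CPM in WT and 14.6 and 10.4 CPM in KO of experiment 2. Each KO library lay below each WT library, but reads of the gene were still present in all KO libraries. An exact two-sided permutation test over all 70 arrangements of the libraries gave p = 0.0286, and over the 36 arrangements within experiments p = 0.0556, the smallest they can give. By the edgeR quasi-likelihood fit the reduction was smaller in experiment 1 than in experiment 2 (log2 difference between experiments -0.79 ± 0.22 SE, adjusted p = 0.0238), and over both experiments it did not pass (log2 fold change -0.78 ± 0.19 SE, adjusted p = 0.0574). Libraries held 33977799 to 41584540 counts. The 10 macrophage markers, of which Fcgr1 is 1, summed to between 15863 and 36324 CPM in every library. KO libraries 5 and 6 stood apart by their fibroblast markers, whose 8 genes summed to 162.6 and 216.2 CPM against 1.68 to 11.1 CPM in the 6 other libraries. Of other cell types, NK cells (4 of 4 markers), dendritic cells (6 of 6) and neutrophils (7 of 8) had most markers under 1 CPM in every library, as had mast cells and basophils (3 of 5). Of the latter, Fcer1a was at 0 throughout, Kit was at 1.41 to 8.19 CPM, and Mcpt8 was at 1.16 and 1.27 CPM in KO libraries 5 and 6 and at 0 in the others. The labels do not say that libraries of a group came from separate mice, so p-values measure the spread between these libraries, which may be technical.

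Fcgr2b, Fcgr4 and Fcgr3 lie side by side on mouse chromosome 1 (GRCm38, GENCODE M21). Fcgr2b occupies chr1:170958617-170976547 on the minus strand, Fcgr4 chr1:171018920-171029761 on the plus strand and Fcgr3 chr1:171051174-171064935 on the minus strand, which together span 106 kb. Fcer1g follows at chr1:171229572-171234365 on the minus strand. Fcgr1 lies apart at chr3:96282909-96293969 and Fcgrt at chr7:45092990-45103851, both on the minus strand.

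Fcgr2b and Fcgr3 are close relatives, and reads from some parts of them cannot be told apart. Their coding sequences matched at 84.5% of 783 aligned bases, whereas the other pairs among Fcgr1, Fcgr2b, Fcgr3 and Fcgr4 matched at 60.5% to 65.9%. The longest identical stretch has 129 bases and runs from exon 3 into exon 4, in the part that codes for the extracellular domains. It is shown for both genes, with the best ungapped match in Fcgr4 and Fcgr1, where capitals mark bases that differ from the shared stretch. In genome coordinates, which include the intron between the exons, it lies at chr1:170966674-170968081 (Fcgr2b, minus strand), chr1:171054167-171057792 (Fcgr3, minus strand), chr1:171020049-171025570 (Fcgr4, plus strand) and chr3:96287206-96292354 (Fcgr1, minus strand).
Fcgr2b: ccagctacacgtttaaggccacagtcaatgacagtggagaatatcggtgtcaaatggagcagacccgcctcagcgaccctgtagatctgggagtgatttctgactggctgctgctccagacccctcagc
Fcgr3: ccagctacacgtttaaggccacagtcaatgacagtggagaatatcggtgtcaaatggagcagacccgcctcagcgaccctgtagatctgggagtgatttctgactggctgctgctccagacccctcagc
Fcgr4: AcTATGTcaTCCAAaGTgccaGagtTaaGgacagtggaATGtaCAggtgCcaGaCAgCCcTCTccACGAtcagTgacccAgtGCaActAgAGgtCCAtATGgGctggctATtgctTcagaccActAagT
Fcgr1: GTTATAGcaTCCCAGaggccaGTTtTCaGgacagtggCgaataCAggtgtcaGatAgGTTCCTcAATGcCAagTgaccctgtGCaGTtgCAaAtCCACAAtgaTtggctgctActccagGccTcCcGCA
The match in Fcgr4 has 55 mismatches and that in Fcgr1 has 58. Of all 50-base stretches in Fcgr3 transcripts, 9.58% also occur in Fcgr2b and in no other gene, and of 100-base stretches 2.54%. In Fcgr2b transcripts 6.95% of 50-base stretches occur in another gene, 2.92% of them all in Fcgr3. No 50-base stretch of Fcgr1, Fcgr4, Fcer1g or Fcgrt occurs in another gene. The counts of Fcgr2b and Fcgr3 are therefore uncertain, and these shares do not bound the error, since the genes differ in level and how reads with several matches were counted was not given in the sources used here. An antisense gene, Gm38204, covers 2.68% of the exon bases of Fcgr2b, and the strand setting of the counting was not given either.

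The 250 bases before the RefSeq start (GRCm38.p6) are shown for the 4 IgG receptors, since these neighbours and relatives differed in response. Capitals mark matches, on either strand, to GAGGAA (a core bound by the myeloid factor PU.1, read as TTCCTC where it lies on the opposite strand), TTCNNNGAA (the element of STAT factors) and a repeat of interferon regulatory factors (GAAA, any 2 bases, GAAA). The regions are chr3:96293970-96294219 for Fcgr1, chr1:170976072-170976321 for Fcgr2b, chr1:171059404-171059653 for Fcgr3 and chr1:171018676-171018925 for Fcgr4, each on its gene's strand. For Fcgr2b, Fcgr3 and Fcgr4 the RefSeq start lies inside the GENCODE gene.
Fcgr1: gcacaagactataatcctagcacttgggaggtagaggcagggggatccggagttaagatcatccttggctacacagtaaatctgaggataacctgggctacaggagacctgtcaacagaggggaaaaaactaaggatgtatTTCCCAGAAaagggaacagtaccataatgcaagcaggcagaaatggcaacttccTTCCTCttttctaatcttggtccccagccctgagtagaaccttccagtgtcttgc
Fcgr2b: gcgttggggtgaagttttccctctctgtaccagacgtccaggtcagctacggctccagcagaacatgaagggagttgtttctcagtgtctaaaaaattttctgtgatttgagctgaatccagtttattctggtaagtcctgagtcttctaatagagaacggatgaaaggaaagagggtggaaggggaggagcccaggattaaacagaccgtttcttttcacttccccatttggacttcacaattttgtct
Fcgr3: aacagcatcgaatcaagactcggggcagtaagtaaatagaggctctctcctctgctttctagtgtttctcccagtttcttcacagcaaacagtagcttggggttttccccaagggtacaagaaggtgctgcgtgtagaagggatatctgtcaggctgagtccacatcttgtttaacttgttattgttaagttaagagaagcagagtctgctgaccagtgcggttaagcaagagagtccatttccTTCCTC
Fcgr4: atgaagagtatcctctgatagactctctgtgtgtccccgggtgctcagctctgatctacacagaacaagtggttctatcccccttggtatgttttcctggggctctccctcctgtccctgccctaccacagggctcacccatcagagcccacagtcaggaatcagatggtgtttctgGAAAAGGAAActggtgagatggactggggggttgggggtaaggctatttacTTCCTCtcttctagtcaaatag
GAGGAA ended 50 bases before the start in Fcgr1, 17 before it in Fcgr4 and 1 before it in Fcgr3, and it was not found in this window of Fcgr2b, Fcer1g or Fcgrt. Of 27025 promoters of this length, 23.1% hold it. TTCNNNGAA was found in Fcgr1 alone of the 6 genes, 101 bases before the start, against 7.18% of all promoters. The GAAA repeat was found in Fcgr4 alone, 64 bases before the start, against 3.04%. The CArG box, the element of serum response factor, was in none of the 6 windows and in 1.4% of all promoters. These are matches of letters, and no binding was measured.

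Fcer1g was the most abundant of the 6 transcripts per length, with a median over the 8 libraries of 898 CPM per kb of exon. Fcgr3 followed with 111, Fcgr1 with 103, Fcgr4 with 64.6, Fcgrt with 19.3 and Fcgr2b with 13.7 CPM per kb. The order was the same with transcript length in place of exon length. Fcgr3 spread most widely among the activating receptors, from 47.7 to 419 CPM per kb, and Fcgr2b from 4.85 to 44.1.

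KO BMDMs differed from WT in 4 of the 6 genes in experiment 1, all higher (Fcgr3, Fcgr2b, Fcgrt and Fcgr1), and in 2 of 6 in experiment 2, where Fcgrt was higher and Fcgr2b lower. Among all 14418 genes tested, 55.1% passed the adjusted threshold of 0.05 in experiment 1 (27% higher and 28.1% lower) and 15.8% in experiment 2 (7.52% higher and 8.29% lower), which is the background for these counts. Fcgrt was the 1 member past the threshold in the same direction in both experiments, as were 4.38% of all genes (2.13% higher in both), and Fcgr2b was the 1 past it in opposite directions, as were 6.34%. For 2 of the 6, Fcgr2b and Fcgr3, the KO to WT difference was unequal in experiments 1 and 2 by the interaction test, which 41.6% of all genes passed. The median log2 fold change of the 6 genes was 0.87 in experiment 1 and -0.18 in experiment 2. Over all genes the median was 0.01 in each, with an SD between genes of 1.05 in experiment 1 and 0.93 in experiment 2. In these bulk samples, fewer cells of a type and less RNA per cell cannot be told apart.

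**Figure D1:**
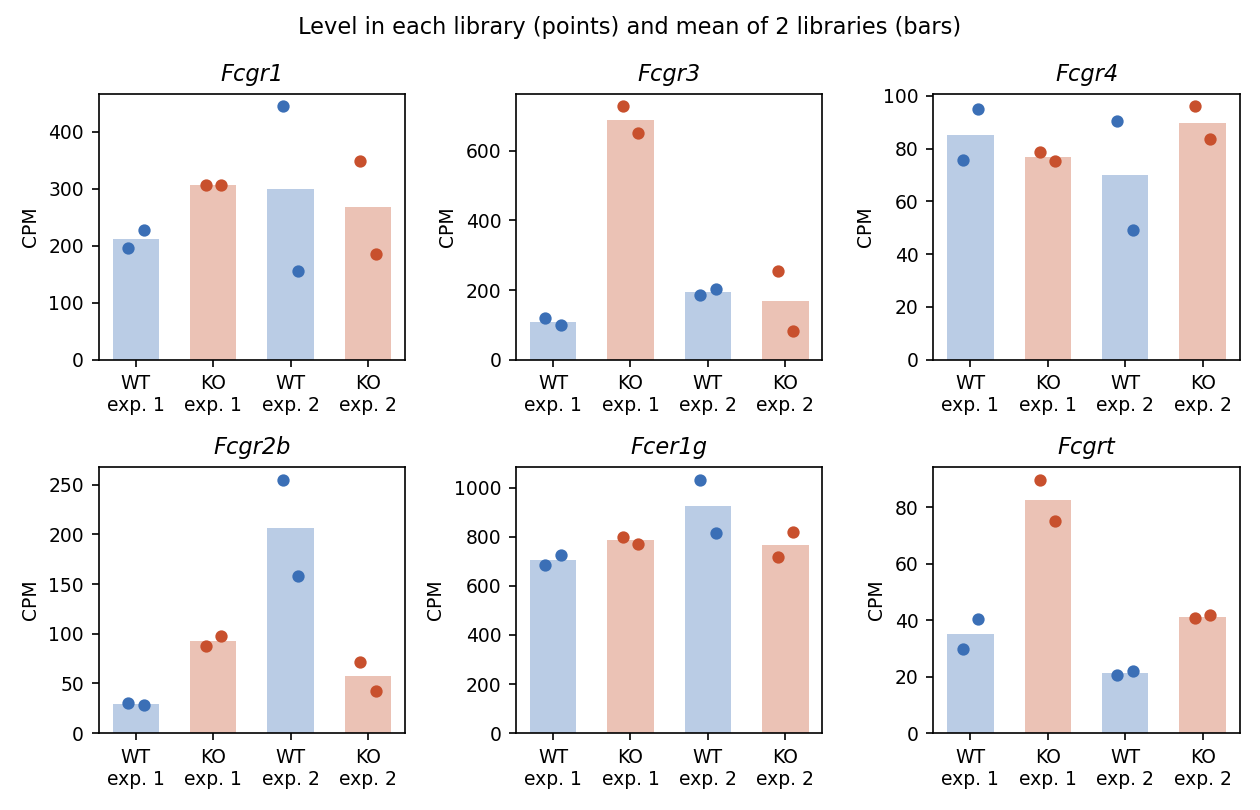
CPM (vertical axis, each panel on its own scale from 0) of the 6 genes in the 4 combinations of genotype and experiment, with points for libraries and bars for the mean of 2 libraries. Fcgr3 in KO of experiment 1 sits at 651 and 728 CPM and all other libraries at or under 254 CPM, while for Fcgrt all KO libraries lie above all WT libraries.

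Fcgr3 encodes the low-affinity activating receptor that binds immune complexes. It was at 120.1 and 98.4 CPM in WT and at 728 and 651 CPM in KO of experiment 1. KO was higher by 6.31-fold (log2 fold change 2.64 ± 0.11 SE, adjusted p = 8.79e-06, edgeR quasi-likelihood test, as for the adjusted p-values that follow), the widest difference of the 6 genes. In experiment 2, WT libraries held 184 and 202 CPM and KO libraries 254 and 82.9 CPM, so the KO libraries lay on either side of WT and differed from each other 3.06-fold. The log2 fold change there was -0.20 ± 0.52 SE (adjusted p = 0.818). Without KO library 7, which held the higher of these values, it was -1.22 with adjusted p = 0.0384, and without KO library 8 it was 0.39. The genotype effect differed between the experiments by -2.86 ± 0.61 SE on the log2 scale (adjusted p = 0.00885), and this call was lost without WT library 2 (adjusted p = 0.0561).

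Fcgr1 encodes the high-affinity receptor that also binds monomeric IgG, and it marks macrophages. Its level was 196 and 227 CPM in WT and 307.5 and 306 CPM in KO of experiment 1, with no overlap, as for 79.9% of all genes. KO was higher by 1.45-fold (log2 fold change 0.52 ± 0.08 SE, adjusted p = 0.000719), and the call was lost when the spread was estimated over all 8 libraries (adjusted p = 0.380). In experiment 2, WT libraries differed from each other 2.86-fold, at 445 and 156 CPM, and the KO libraries at 349 and 186 CPM fell between them. The log2 fold change was -0.17 ± 0.57 SE (adjusted p = 0.862), and without WT library 3 it was 0.78. The difference between the experiments did not pass for Fcgr1 (-0.70 ± 0.65 SE, adjusted p = 0.412), although it did when all genes with a count were tested (adjusted p = 0.000396).

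Fcgr4 encodes the receptor that prefers IgG2a and IgG2b. WT libraries held 75.8 and 94.8 CPM and KO libraries 78.8 and 75.1 CPM in experiment 1, and 90.4 and 49.2 CPM (WT) against 96.1 and 83.5 CPM (KO) in experiment 2. The ranges overlapped in both experiments, and neither log2 fold change passed the test (-0.16 ± 0.11 SE, adjusted p = 0.261, and 0.36 ± 0.30 SE, adjusted p = 0.446). In experiment 1 the value rested on a single library, since it was -0.31 with adjusted p = 0.0152 without WT library 1 and 0.0097 without WT library 2, and it passed when all genes with a count were tested (adjusted p = 0.0110). Between the experiments the effect differed by 0.51 ± 0.36 SE (adjusted p = 0.287), and by 1.05 without WT library 3. This difference passed when all genes with a count were tested (adjusted p = 0.00665).

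Fcer1g, the signalling chain that the 3 activating receptors share, was the steadiest of the 6 genes. It was at 683 and 726 CPM in WT and 799.9 and 771 CPM in KO of experiment 1, where the ranges did not overlap, as for 79.9% of all genes. In experiment 2 it was at 1032 and 815 CPM in WT and 716 and 820.0 CPM in KO, which overlapped. The log2 fold changes were 0.14 ± 0.067 SE (adjusted p = 0.0997) and -0.27 ± 0.18 SE (adjusted p = 0.351). Under upper-quartile scaling the first became 0.24 with adjusted p = 0.0161. The difference between the experiments was -0.42 ± 0.19 SE (adjusted p = 0.110), and without WT library 4 it was -0.58 with adjusted p = 0.0274.

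Relative to the summed level of the 3 activating receptors, all per kb, Fcer1g lay below the WT range in 3 of 4 KO libraries. The ratio was 3.81, 3.78, 3.37 and 4.33 in WT libraries 1 to 4, and 1.52, 1.60, 2.29 and 5.04 in KO libraries 5 to 8. The 2 lowest ratios were those of KO in experiment 1, in which Fcgr3 was highest, and KO library 8 had the highest.

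Fcgr2b, the inhibitory receptor, moved in opposite directions in the 2 experiments. WT libraries of experiment 1 held 30.1 and 28.1 CPM and KO libraries 87.3 and 97.5 CPM, a 3.17-fold higher level in KO (log2 fold change 1.65 ± 0.077 SE, adjusted p = 2.62e-06). Fcgr3, with which it shares sequence, was at a mean of 689 CPM in the same KO libraries and 109 CPM in WT, and the part of shared reads in the rise of Fcgr2b was not tested. WT libraries of experiment 2 held 255 and 158 CPM and KO libraries 71.6 and 42.6 CPM, a level 3.62-fold higher in WT (log2 fold change -1.86 ± 0.35 SE, adjusted p = 0.0325). The groups did not overlap in either experiment, as for 79.9% and 65.4% of all genes, and the genotype effect differed between them by -3.52 ± 0.40 SE on the log2 scale (adjusted p = 0.000825). The decrease in experiment 2 was the less firm of the calls, since it was lost without WT library 3 (adjusted p = 0.106), KO library 7 (0.0571) or KO library 8 (0.121) and when all genes with a count were tested (0.144). The WT libraries themselves differed, those of experiment 1 holding the lowest and those of experiment 2 the highest levels of all 8. Opposite directions were not particular to Fcgr2b, since more genes passed in opposite directions (6.34%) than in the same direction (4.38%). For Prkcb, Rac2 and Fcrl5, described with the pathway lists, WT of experiment 1 and KO of experiment 2 were both above WT of experiment 2 and KO of experiment 1. For Irf1, Trim21, Malt1 and Clec4e, in contrast, WT of experiment 2 stood above all other groups. The share of all genes with either pattern was not computed. The genotypes are those of the labels, and whether the labels are right was not tested. Mean Mkl1 in KO was 0.77 of that in WT in experiment 1 and 0.44 in experiment 2. The KO to WT difference was also unequal between the experiments for 5 of 6 fibroblast and 6 of 10 macrophage markers tested, by the same interaction test. At low levels, so it was for the 1 tested marker of neutrophils and that of mast cells and basophils, but not for those of NK and dendritic cells.

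Fcgrt, the FcRn heavy chain, was higher in KO in both experiments. It was at 29.9 and 40.4 CPM in WT and 89.8 and 75.1 CPM in KO of experiment 1, a 2.35-fold difference (log2 fold change 1.22 ± 0.18 SE, adjusted p = 0.00448). In experiment 2 it was at 20.6 and 22.1 CPM in WT and 40.9 and 41.7 CPM in KO, a 1.93-fold difference (log2 fold change 0.95 ± 0.11 SE, adjusted p = 0.0112). All 4 KO libraries lay above all 4 WT libraries, as for 6.46% of all genes, although the lowest KO library at 40.9 CPM was close to the highest WT library at 40.4 CPM. No difference between the experiments was detectable (-0.28 ± 0.21 SE, adjusted p = 0.316). Over both experiments, with experiment as a term in the fit, Fcgrt was the 1 member that passed (log2 fold change 1.09 ± 0.13 SE, adjusted p = 0.00652), beside 7.12% of all genes (3.72% higher), and without that term the adjusted p was 0.162. Each single-experiment call was lost without 1 library, that of experiment 1 without KO library 5 (adjusted p = 0.0641) and that of experiment 2 without KO library 8 (0.0630), while the fold changes stayed between 0.90 and 1.45 under every alternative tried in the single experiments.

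**Figure D2:**
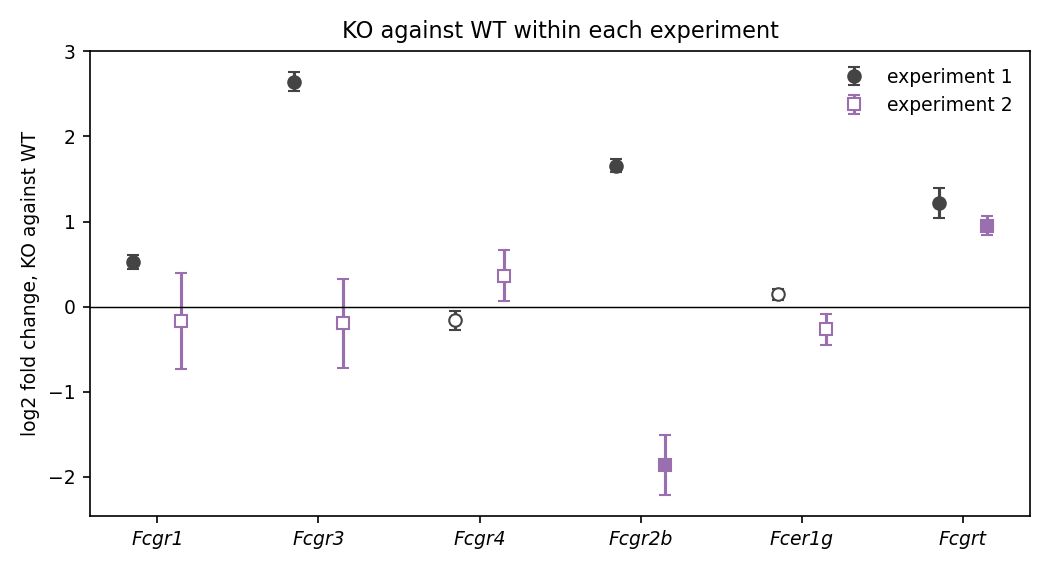
Log2 fold change of KO against WT (vertical axis) for the 6 genes in experiment 1 (circles) and experiment 2 (squares), with bars for 1 SE and filled symbols for an adjusted p under 0.05. Fcgr2b lies at 1.65 and -1.86 in the 2 experiments, and Fcgrt at 1.22 and 0.95.

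The other 5 genes did not pass over both experiments. Fcgr3 came to 1.23 ± 0.69 SE on the log2 scale (adjusted p = 0.324) and Fcgr2b to -0.10 ± 0.81 SE (adjusted p = 0.959). Fcgr1 came to 0.18 (adjusted p = 0.810), Fcgr4 to 0.11 (0.810) and Fcer1g to -0.05 (0.853). By design, KO libraries 5 and 6 are the whole KO group of experiment 1, and they also carried the fibroblast markers. In experiment 1, 6 of 6 fibroblast markers tested were higher in KO, with a median log2 fold change of 5.12, and none of 6 passed in experiment 2. The part of these cells in the receptor levels was not tested. In experiment 2 the fibroblast markers summed to 8.61 to 11.1 CPM in WT and 1.68 to 10.6 CPM in KO. The fit without KO libraries 5 and 6 was an alternative chosen after seeing the data. Its genotype effect comes from experiment 2 alone, so it repeats the fold changes of experiment 2 and is no further check. Fcgrt stood at 0.95 and Fcgr2b at -1.86, and Fcgr1 (-0.17) and Fcgr3 (-0.20) were negative, as in experiment 2. The macrophage markers of experiment 1 summed to 26963 to 36324 CPM in WT and 19301 to 21442 CPM in KO, a sum made up mostly of Lyz2 and Adgre1, and the sums of experiment 2 overlapped between genotypes. Singly, 6 of these 10 markers were higher and 3 lower in KO of experiment 1 (median log2 fold change 0.63). In experiment 2, 3 were higher and 2 lower. Csf1r was at 1561 and 1232 CPM in WT and 2538 and 2440 CPM in KO of experiment 1, and at 2448 and 2225 CPM in WT and 1176 and 751 CPM in KO of experiment 2. Adgre1 went the other way, at 8328 and 7102 CPM in WT and 1929 and 1669 CPM in KO, then at 2678 and 2720 CPM in WT and 4875 and 5264 CPM in KO.

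The 4 groups were also ordered by mean level. For Fcgr2b the order was WT of experiment 2 (206.6 ± 68.6 CPM, SD, n = 2), KO of experiment 1 (92.4 ± 7.24), KO of experiment 2 (57.1 ± 20.5) and WT of experiment 1 (29.1 ± 1.41), with no overlap between neighbours. For Fcgrt it was KO of experiment 1 (82.5 ± 10.4), KO of experiment 2 (41.3 ± 0.593), WT of experiment 1 (35.1 ± 7.44) and WT of experiment 2 (21.3 ± 0.998), again without overlap. For Fcgr3, KO of experiment 1 (689 ± 54.7) stood above the 3 other groups, of which WT of experiment 2 (193 ± 12.2), KO of experiment 2 (168 ± 121) and WT of experiment 1 (109 ± 15.4) overlapped with their neighbours. Fcgr1 had the same order of means as Fcgr3, but its neighbouring groups overlapped throughout, as did those of Fcgr4. Fcer1g had the same order of means as Fcgr2b, in which the WT libraries of experiment 2 (924 ± 153) stood above those of KO in experiment 1 (785 ± 20.7), and the lower neighbours overlapped.

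Set against the inhibitory receptor, the activating receptors gave different pictures. The ratio of Fcgr3 to Fcgr2b, both per kb, was 13.3 and 11.7 in WT and 27.8 and 22.3 in KO of experiment 1, and 2.41 and 4.25 in WT and 11.8 and 6.49 in KO of experiment 2. Its values in KO lay above those in WT in both experiments, and in experiment 2 the difference came with the lower Fcgr2b. For single genes, 79.9% and 65.4% did not overlap between genotypes in the 2 experiments, and the share for ratios was not computed. The ratio of Fcgr1 to Fcgr2b was 14.6 and 18.1 in WT and 7.88 and 7.02 in KO of experiment 1, and 3.90 and 2.21 in WT and 10.9 and 9.77 in KO of experiment 2. Fcgr4 to Fcgr2b followed the same course, at 11.6 and 15.6 (WT) and 4.16 and 3.55 (KO), then at 1.63 and 1.43 (WT) and 6.18 and 9.04 (KO). Both of these ratios were thus lower in KO in experiment 1 and higher in KO in experiment 2. With 2 libraries against 2, no test of a single ratio was run. The size of a ratio depends on the length used, since Fcgr2b has 5790 exon bases but 3544 in its longest coding transcript. As plain counts, Fcgr3 to Fcgr2b was 3.99 and 3.50 in WT and 8.34 and 6.67 in KO of experiment 1. In experiment 2 it was 0.723 and 1.28 in WT and 3.54 and 1.95 in KO. Counts of both genes are uncertain because of their shared sequence.

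**Figure D3:**
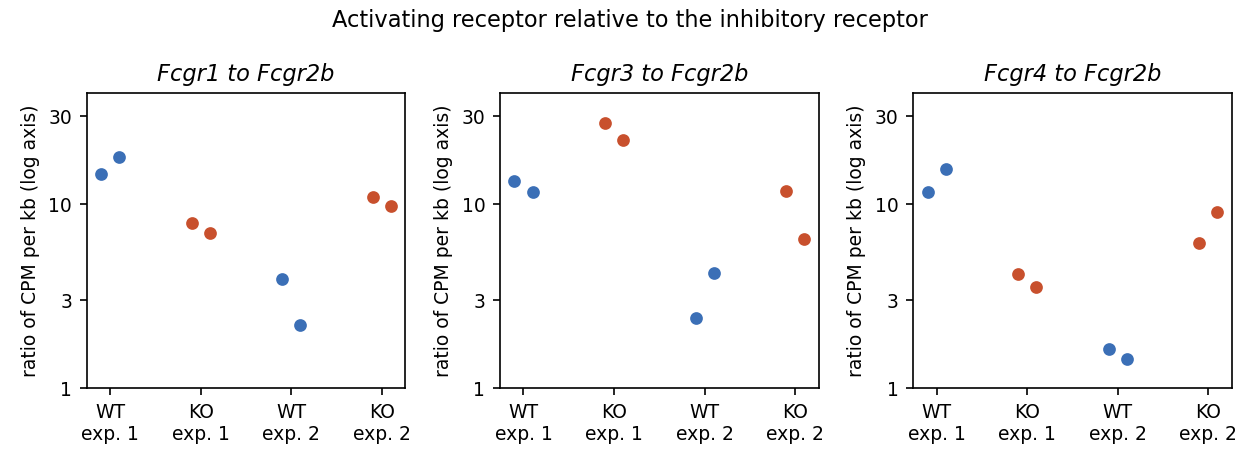
Ratio of each activating receptor to Fcgr2b, both as CPM per kb of exon (vertical log axis, shared by the panels), with 1 point per library for WT and KO of the 2 experiments. The ratio of Fcgr3 is higher in KO in both experiments, whereas those of Fcgr1 and Fcgr4 are lower in KO in experiment 1 and higher in experiment 2. Counts of Fcgr2b and Fcgr3 are uncertain because of their shared sequence.

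The genes most like each member over the 8 libraries, by Pearson correlation of log2 CPM among genes with a mean of at least 3, are given as a description, since the libraries fall into 2 experiments and are few. For Fcgr2b they were Ms4a4c (r = 0.997), Hist1h2bg (0.992) and Hist1h3i (0.991). Ms4a4c was at 1.30 and 1.47 CPM in WT and 12.8 and 17.4 CPM in KO of experiment 1, and at 154 and 40.6 CPM in WT and 8.20 and 3.24 CPM in KO of experiment 2, which is the order of groups seen for Fcgr2b. For Fcgr3 they were Ptpra (0.992), Ecm1 (0.989) and Trak1 (0.986), and for Fcgrt Gna12 (0.995), Fam168a (0.993) and Tnrc6b (0.991). Fcer1g was followed most closely by Nemf (0.983), Vcpip1 (0.974) and Ubp1 (0.970), Fcgr1 by Clec2i (0.960), Sc5d (0.936) and Ncoa6 (0.900), and Fcgr4 by Arf3 (0.943), Elf4 (0.914) and Gmcl1 (0.911). None of these 18 genes was another of the 6. Among the 6 themselves the closest pair was Fcgr2b and Fcer1g (r = 0.787), followed by Fcgr3 and Fcgrt (0.653) and Fcgr1 and Fcgr4 (0.618).

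Genes that carry or limit the receptors' signals were taken from lists, and were compared with the same background of 55.1% of all genes past the threshold in experiment 1 and 15.8% in experiment 2. Of 22 signal relays, which pass the ITAM signal from Src and Syk kinases onward, 5 rose and 10 fell in experiment 1 (median log2 fold change -0.15) and 3 rose and 6 fell in experiment 2 (median -0.07). Lcp2, the adaptor SLP-76, fell in both experiments (-1.46 ± 0.058 SE, adjusted p = 1.49e-06, and -1.15 ± 0.20 SE, adjusted p = 0.0251). Prkcb, a protein kinase C, fell in experiment 1 (-1.69 ± 0.063 SE, adjusted p = 1.21e-06) and rose in experiment 2 (1.60 ± 0.28 SE, adjusted p = 0.0268), from 504 and 511 CPM in WT to 163 and 153 CPM in KO and from 105 and 137 CPM to 280 and 455 CPM. Fyn, a Src family kinase, likewise fell by 0.40 and rose by 0.96 on the log2 scale (adjusted p = 0.000607 and 0.00953). Malt1, the paracaspase of the pathway to NF-κB, was at 324 and 366 CPM in WT and 56.8 and 49.3 CPM in KO of experiment 2 (log2 fold change -2.70, adjusted p = 0.00327), with -0.12 in experiment 1 (adjusted p = 0.343). The experiment 2 calls of Lcp2, Prkcb and Fyn were lost without KO library 8 (adjusted p = 0.0598, 0.0780 and 0.0543), that of Lcp2 also without WT library 3 (0.0847) or KO library 7 (0.0650), and that of Prkcb also without WT library 3 (0.110) or 4 (0.0565). Of the 22 relays, 3 passed in both experiments in the same direction and 5 in opposite directions, beside 4.38% and 6.34% of all genes.

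Among 11 brakes on these signals, 3 rose and 4 fell in experiment 1 and 1 rose and 1 fell in experiment 2. Inpp5d, which encodes SHIP1, the phosphatase that FcγRIIB recruits, rose in both (0.23, adjusted p = 0.0144, and 0.84, adjusted p = 0.0173). Ptpn6, which encodes the phosphatase SHP-1, fell in both (-0.81, adjusted p = 2.46e-05, and -0.65, adjusted p = 0.0484). Cblb, a ubiquitin ligase, rose in experiment 1 (1.26, adjusted p = 2.28e-06) and was at -0.31 in experiment 2 (adjusted p = 0.552). Each of the experiment 2 calls of Ptpn6 and Inpp5d was lost when any 1 of its 4 libraries was left out (adjusted p = 0.0956 to 0.179 and 0.0526 to 0.0795), and that of Inpp5d in experiment 1 without WT library 1 (0.0803) or KO library 5 (0.0718) or with a spread shared by all libraries (0.0519).

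Of 15 genes for the actin and oxidase machinery of phagocytosis, 3 rose and 7 fell in experiment 1, and 2 rose and 3 fell in experiment 2. Rac2, a GTPase of the phagocyte oxidase, fell and then rose (-1.08, adjusted p = 8.01e-06, and 0.99, adjusted p = 0.0272). Coro1a, an actin-binding protein, fell in experiment 1 (-1.06, adjusted p = 1.66e-05) and was at -0.53 in experiment 2 (adjusted p = 0.0572). Myo10, a myosin, fell in experiment 2 (-1.25, adjusted p = 0.0205) and was at -0.11 in experiment 1 (adjusted p = 0.552). In experiment 2 the call of Rac2 was lost without any 1 of the 4 libraries (adjusted p = 0.0546 to 0.113) and that of Myo10 without KO library 8 (0.0806), whereas Coro1a passed there by DESeq2 (0.00450).

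Other receptors that use the Fcer1g chain were detected in part, 4 of 8 passing the filter. Clec4e, the receptor Mincle, was at 2784 and 1740 CPM in WT and 166 and 75.4 CPM in KO of experiment 2 (log2 fold change -4.23 ± 0.50 SE, adjusted p = 0.0143), and at 216 and 114 CPM in WT and 51.1 and 84.5 CPM in KO of experiment 1 (-1.29 ± 0.54 SE, adjusted p = 0.170). Clec4d, its relative MCL, fell in experiment 1 (-1.06, adjusted p = 1.85e-05) and was at -0.31 in experiment 2 (adjusted p = 0.293). Clec4n, which encodes Dectin-2, rose in experiment 1 (1.41, adjusted p = 0.000844) at levels of 2.58 to 9.20 CPM, and was at -1.26 in experiment 2 (adjusted p = 0.245). Pira2, an activating receptor paired with an inhibitory one, did not pass in either experiment (0.60, adjusted p = 0.165, and -0.46, adjusted p = 0.186), but in experiment 1 it passed by DESeq2 (adjusted p = 0.0221) and without WT library 1, where it came to 1.07 (adjusted p = 0.000337). Clec4e also passed in experiment 1 by DESeq2 (-1.30, adjusted p = 0.0495). The experiment 2 call of Clec4e was lost without KO library 8 and when all genes with a count were tested (adjusted p = 0.0856). The experiment 1 call of Clec4n was lost with a spread shared by all libraries (adjusted p = 0.0708).

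Of 12 other receptors for antibody, 4 passed the filter. Trim21, the cytosolic IgG receptor, took the same course as Fcgr2b, rising in experiment 1 (0.70, adjusted p = 6.27e-05) and falling in experiment 2 (-1.61, adjusted p = 0.0209), from 227 and 140 CPM in WT to 61.9 and 58.5 CPM in KO. Fcrl5, an Fc receptor-like gene known from B cells, took the opposite course, from 9.71 and 20.1 CPM in WT to 0.135 and 0.250 CPM in KO of experiment 1, and from 0.767 and 0.489 CPM in WT to 13.9 and 28.3 CPM in KO of experiment 2 (adjusted p = 0.00227 and 0.00903). The experiment 2 call of Trim21 was lost without KO library 7 (adjusted p = 0.0853) or 8 (0.119), and the experiment 1 call of Fcrl5 without KO library 5 (0.125) or 6 (0.114). Fcrl1 rose in experiment 1 (0.85, adjusted p = 9.58e-05) and was at -0.02 in experiment 2 (adjusted p = 0.963). B2m, the light chain that FcRn needs, did not pass in either experiment (0.09, adjusted p = 0.348, and -0.23, adjusted p = 0.553), and neither did Tyrobp, the adaptor DAP12 (0.06, adjusted p = 0.483, and -0.13, adjusted p = 0.523). Hcst, the adaptor DAP10, rose in experiment 1 (0.79, adjusted p = 0.00661, lost with a spread shared by all libraries at 0.0985) and was at 0.11 in experiment 2 (adjusted p = 0.874).

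Of 12 factors known to control Fc receptor genes, 5 rose and 3 fell in experiment 1 (median 0.14), and 2 rose and 6 fell in experiment 2 (median -0.29). Irf1, a transcription factor induced by interferon, was at 43.5 and 47.6 CPM in WT and 98.1 and 91.7 CPM in KO of experiment 1 (log2 fold change 1.05 ± 0.070 SE, adjusted p = 1.18e-05). In experiment 2 it was at 404 and 436 CPM in WT and 55.2 and 44.1 CPM in KO (-3.08 ± 0.17 SE, adjusted p = 0.00327). The order of the group means was that of Fcgr2b, but KO of experiment 2 and WT of experiment 1 overlapped. Jak2, a kinase of the interferon gamma receptor, fell in both experiments (-0.37, adjusted p = 0.000911, and -1.59, adjusted p = 0.0105), the first call being lost with a spread shared by all libraries (0.0618) and the second without KO library 7 (0.0526) or 8 (0.0669). Cebpb, a C/EBP factor of myeloid cells, fell in experiment 1 (-1.56, adjusted p = 1.75e-06) and was at -0.04 in experiment 2 (adjusted p = 0.838).

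**Figure D4:**
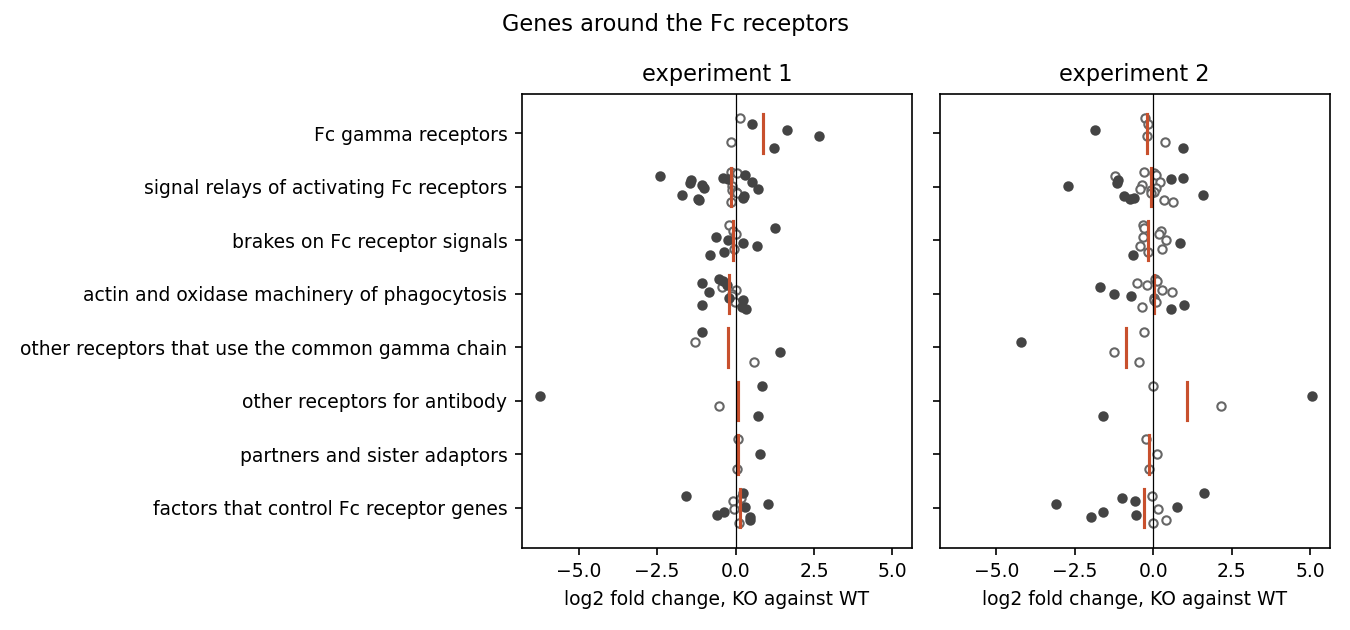
Log2 fold change of KO against WT (horizontal axis) for the 6 receptor genes and 7 lists of genes around them in each experiment, with 1 point per gene tested, filled where the adjusted p is under 0.05, and a line at each list's median. The lists' medians lie near 0 in experiment 1, where 10 of 22 signal relays fell and 5 rose. In experiment 2 they reach -0.86 for other receptors that use the common gamma chain and 1.08 for other receptors for antibody, with 4 genes tested in each. The receptor genes have a median of 0.87 in experiment 1 and of -0.18 in experiment 2.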

How the data were processed

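BMDM RNA of 8 libraries was sequenced with a stranded mRNA kit. The submitters' processing notes name STAR 2.7.0f, Subread 1.6.4, featureCounts, DESeq2 1.22.1 and GRCm38, without their roles. The authors deposited raw counts per gene for each experiment, and normalized counts, a signal, which equal the deposited counts divided by a factor of 0.891 to 1.09 per library. Only the counts were tested, the normalized values serving to check the unit.

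The tables were joined by gene symbol, and each library was placed by its label into genotype and experiment. KO was compared with WT using edgeR 4.0.16 in R 4.3.3 (filterByExpr by genotype over all 8 libraries, TMM scaling within the libraries fitted, robust quasi-likelihood fit and F test, Benjamini-Hochberg adjustment over 14418 genes, threshold 0.05) in each experiment, for the difference between experiments (interaction term), and over both with experiment as an additive term. Standard errors were obtained as the absolute log2 fold change over the root of the F statistic. CPM used TMM factors over all 8 libraries and log2 CPM a prior count of 2. Lengths and positions came from GENCODE M21 on GRCm38, and promoters from RefSeq, which held all 6 genes. Scripts were tested on simulated data. Within pairs of replicates, counts differed by a chi-square per gene of 12.3 to 80.1, beyond sampling noise, and all libraries were treated as distinct. The common biological coefficient of variation was 0.0788 in experiment 1 and 0.181 in experiment 2, so that small differences were harder to detect in experiment 2.

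The 6 genes and the lists around them were chosen with earlier results of these data known. Named were these 6, Mkl1, from each list the 2 genes with the smallest p in each experiment, and for each of the 6 the 3 genes most like it. Ms4a4c and, among markers, Lyz2, Adgre1, Csf1r, Fcer1a, Kit and Mcpt8 were singled out after their values were seen. Alternatives were DESeq2 1.42.0, limma-voom (limma 3.58.1), upper-quartile scaling, testing all 28193 genes with a count, leaving out each library, a spread shared by all 8 libraries, no experiment term and, chosen after seeing the data, omission of KO libraries 5 and 6.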

Additional observations from a re-analysis of the deposited data

Results flagged for a closer look

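Some results were singled out because KO and WT differed unequally in the 2 experiments by the interaction test in edgeR, at an adjusted p under 0.05, as for 41.6% of all genes. Values are log2 fold changes of experiment 2 minus experiment 1. Among the receptor genes these were Fcgr2b (-3.52) and Fcgr3 (-2.86, lost without WT library 2), and the targeted gene Mkl1 also met this rule (-0.79).

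Around the receptors, the effect was more positive in experiment 2 for Fcrl5 (11.29), Prkcb (3.28), Rac2 (2.06), Cebpb (1.51), Fyn (1.35), Clec4d (0.74), Inpp5d (0.59) and Coro1a (0.52). It was more negative in experiment 2 for Irf1 (-4.14), Clec4e (-2.94), Clec4n (-2.69), Malt1 (-2.59), Trim21 (-2.32), Cblb (-1.58), Jak2 (-1.22), Myo10 (-1.15) and Fcrl1 (-0.88). The submitters describe the experiments as 2 batches, and what else differed between them cannot be told apart from the batch.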

How the results depend on the processing

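Of 264 values of the 6 genes under alternatives, 231 kept their direction and side of the threshold, 9 lost a call, 9 gained one and 15 turned direction. The increases of Fcgr3 (log2 2.51 to 2.80) and Fcgr2b (1.57 to 1.75) in experiment 1 and the interaction of Fcgr2b (-3.91 to -3.11) held under all alternatives run. No paired analysis was possible because the library numbers 1 to 8 are not shared between WT and KO.

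Leaving out each library gave 6349 to 7149 genes and 3 to 5 members past the threshold in experiment 1 (7948 and 4 with all), 232 to 1388 genes and 0 to 2 members in experiment 2 (2279 and 2), 3935 to 6508 genes and 1 to 3 members for the interaction (5996 and 2), and 243 to 1100 genes over both experiments (1027), always with 1 member. The value 232 was without KO library 8, 3935 without WT library 2 and 243 without WT library 1. Mkl1 then differed by -0.92 to -0.59 (exact permutation p = 0.0571 without each of the 4 WT libraries in turn). With all genes that had a count, 1 member passed in experiment 2 and 4 in the interaction. A spread shared by all 8 libraries gave 4899 genes in experiment 2. Over both experiments DESeq2 gave 2492 genes, and the fit with no experiment term 4 genes and 0 members. The fit without KO libraries 5 and 6, chosen after seeing the data, gave 3861 genes and 2 members, with a genotype effect from experiment 2 alone.

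Direction turned for some genes as single libraries were left out, and the log2 fold changes then had the ranges given. In experiment 1 this held for Fcgr4 (-0.31 to 0.0097, turned without WT library 2). In experiment 2 it held for Fcgr1 (-0.74 to 0.78, turned without WT library 3 or KO library 8), Fcgr3 (-1.22 to 0.39, turned without KO library 8) and Fcgr4 (-0.011 to 0.87, turned without WT library 4). In the interaction it held for Fcgr1 (-1.27 to 0.27, turned without WT library 3). Over both experiments it held for Fcgr2b (-0.74 to 0.61, turned without WT library 3 or KO library 7 or KO library 8), Fcgr4 (-0.094 to 0.24, turned without WT library 4) and Fcer1g (-0.11 to 0.062, turned without WT library 3 or KO library 7). Over both experiments Fcer1g also turned under upper-quartile scaling (0.017), and Fcgr1 (-0.17) and Fcgr3 (-0.20) without KO libraries 5 and 6. Of 414 values of 23 named genes around the receptors, 362 kept direction and side, 34 lost a call, 6 gained one and 12 turned, none of them a call. With single libraries left out these were Malt1 (-0.24 to 0.0059, turned without WT library 1) and Myo10 (-0.27 to 0.075, turned without WT library 1 or KO library 6) in experiment 1. Those of experiment 2 were Cblb (-0.82 to 0.072, turned without KO library 8), Fcrl1 (-0.32 to 0.23, turned without WT library 3 or KO library 7), Hcst (-0.56 to 0.57, turned without WT library 3 or KO library 7), B2m (-0.46 to 0.034, turned without WT library 3) and Cebpb (-0.12 to 0.037, turned without KO library 7). Under upper-quartile scaling they were, in experiment 2, Fcrl1 (0.035) and Cebpb (0.015). The cause of these changes was not tested.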
